A study of Mus musculus with 6 samples.

Results

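The genes described here encode the heat shock chaperones of HCT116 cells and the co-chaperones that work with them. They were chosen by symbol. The rule took HSPA, HSPB, HSPH, HSP90A, DNAJA, DNAJB and DNAJC genes, the mitochondrial chaperonin genes HSPD1 and HSPE1, the heat shock factor genes HSF1 and HSF2, and BAG1 to BAG6. It left out 4 genes that belong to the endoplasmic reticulum stress response (HSPA5, DNAJB9, DNAJB11 and DNAJC3) and 17 pseudogene symbols ending in P and a number. This gave 86 of the 31456 rows of the count table, and 70 of them passed the filter on low counts and were tested. The set is wider than the cytosol, since HSPA9, HSPD1, HSPE1 and several J proteins work in mitochondria and others, such as HSPA13 and DNAJC10, in the endoplasmic reticulum. HSPBP1 and HSPBAP1 match the HSPB pattern of the rule by spelling and are counted apart from the small heat shock proteins. Another 9 members are pseudogenes, namely HSPA7 and 8 HSP90A symbols ending in a bare P.

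HCT116 is an established human colorectal carcinoma line. Messenger RNA was sequenced from 3 libraries of its parental form and 3 libraries of an oxaliplatin-resistant form, numbered 1 to 3 in each group, with no drug treatment, time or passage given for either form. Oxaliplatin is a platinum drug that damages DNA. The labels name no derivation of the resistant form and do not say whether it is a single clone or whether the libraries stem from separate cultures. The p-values thus measure only the spread between these libraries, which may be technical, and resistance cannot be told apart from other differences between the forms. The labels give the organism as mouse, while the tables carry human gene identifiers. Values of a group are given below in the order of replicates 1, 2 and 3.

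Molecular chaperones bind unfolded stretches of other proteins and keep them from aggregating. HSP70 proteins, encoded by the HSPA genes, do so in a cycle of ATP binding and hydrolysis. J proteins (the DNAJ genes) bring clients to HSP70 and trigger hydrolysis, and nucleotide exchange factors such as the HSP110 proteins and several BAG proteins reset it. HSP90 acts later, on clients such as kinases and steroid receptors, and many tumour cells depend on both. HSF1 is the transcription factor that raises heat shock genes under stress, and it also drives a set of chaperone genes in tumour cells.

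The total count was 20246878 to 32138423 per library. In the parental group, replicate 2 lay farthest from the group's median for 39 of the 70 tested members, against 14 for replicate 1 and 17 for replicate 3. In the resistant group the numbers were 14, 30 and 26 for replicates 1, 2 and 3. The spread over a group's libraries was small for most members, with a median coefficient of variation of 6.38% in the parental and 4.11% in the resistant group. Over all tested genes it was 7.20% and 5.30%. The labelled cell type was checked against its markers. Of 7 epithelial genes, EPCAM, KRT8, KRT18, KRT19, CDH1 and CDX2 were expressed, whereas VIL1, the villin gene, had between 0 and 4 counts per library. The summed level of the 4 leukocyte markers was 0.0509 to 0.263 CPM in parental against 0.103 to 0.281 CPM in resistant libraries. That of the 2 measured endothelial markers, almost all of it VWF, was 0.764 to 0.902 and 0.683 to 1.16 CPM. Among 6 fibroblast markers COL1A1 and PDGFRB were called higher in the resistant cells, while DCN, LUM and COL1A2 had at most 2 counts in any library and COL3A1 at most 11. The summed fibroblast level, nearly all COL1A1, was 22.5 to 26.1 CPM in parental against 39.3 to 44.9 CPM in resistant libraries, and its part in the chaperone results was not tested. Here CPM are counts relative to library size after TMM normalisation, a scaling that lines up the bulk of genes between libraries.

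More chaperone genes were lower than higher in the resistant cells. By edgeR's quasi-likelihood test, with adjusted p-values held to a threshold of 0.05, 30 of the 70 tested members were lower, 12 were higher and 28 did not pass. The 42 calls make 60.0% of the tested members, beside 53.8% of all 16605 tested genes. Of all tested genes 26.5% were lower and 27.3% higher, so the members lay above the background for falls (42.9%) and below it for rises (17.1%). The median log2 fold change of the tested members was -0.09, beside 0.02 over all tested genes. The CPM of the groups did not overlap for 46 of the 70 members, close to the background of 61.2% (31.3% with the resistant libraries higher and 29.9% with them lower). Most changes were small. A change of at least 1.5-fold was called for 4 members that were lower (HSP90AB1, HSPA8, HSF1 and the pseudogene HSP90AB3P), and the background for such falls was 6.74%. It was called for 3 members that were higher (DNAJC10, HSPB11 and HSPA12A), with a background of 11.7%. The split depended on the scaling. With library sizes alone, 23 members were lower and 18 higher, so rises made up 43.9% of the calls against 28.6% with TMM, and the median log2 fold change moved from 0.02 to 0.11 over all genes and from -0.09 to 0.0074 over the members.

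**Figure D1:**
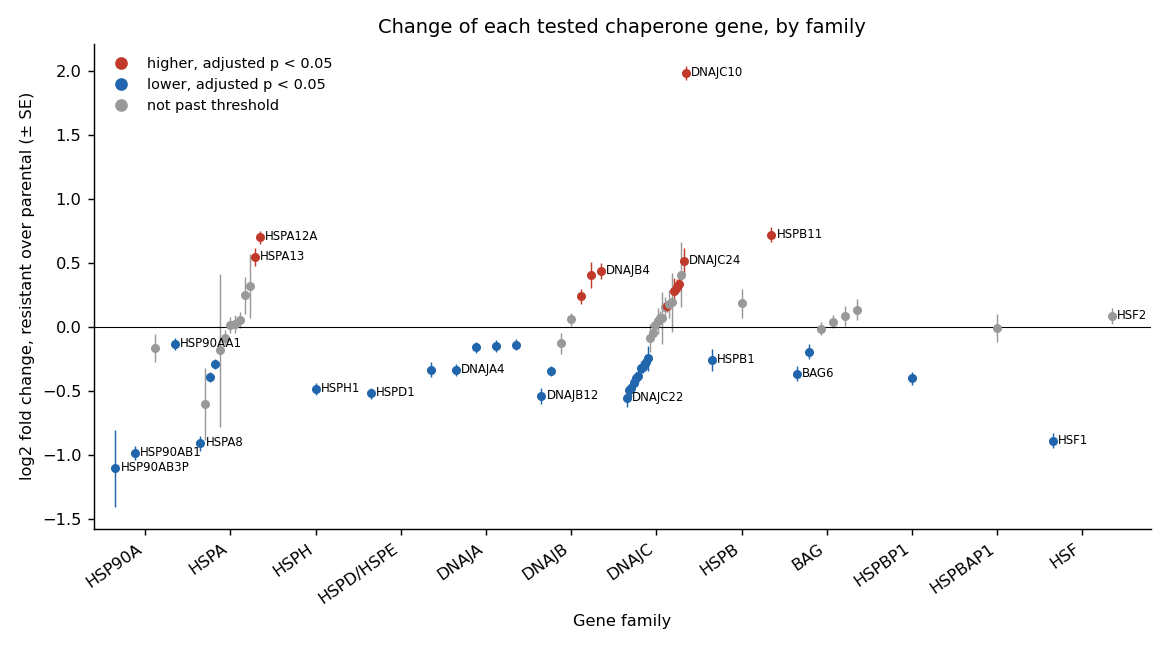
Log2 fold change (resistant over parental, TMM-normalised, bars ± SE of the edgeR fit) of the 70 tested members, ordered within each gene family on the x axis; colour gives the call at an adjusted p under 0.05. HSP90AB1, HSPA8 and HSF1 lie near -0.9 to -1.0, DNAJC10 stands alone at 1.98, and all 4 DNAJA genes lie below 0.

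As a share of all sequenced counts, the 86 members together held 1.95%, 2.06% and 1.98% in the parental libraries, against 1.60%, 1.56% and 1.58% in the resistant ones. The groups did not overlap. A large part of this difference lay in HSP90AB1 and HSPA8, which together held 0.791%, 0.881% and 0.800% of the counts in the parental and 0.456%, 0.456% and 0.443% in the resistant libraries. Without these genes the remaining members held 1.16% to 1.18% in the parental and 1.10% to 1.14% in the resistant libraries, a narrow gap with no overlap. In a bulk sample a lower level cannot be told apart between fewer cells that express a gene and less RNA of it per cell.

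The members with the highest levels were the ones most often lower. Levels of different genes are compared here in FPKM, averaged over the 6 libraries. This unit, a scaling to gene length, was inferred from the deposited values, whose header names none. Among the 20 tested members with the highest mean FPKM (down to DNAJA2 at 53.3 FPKM), 16 were lower, 2 higher and 2 not past the threshold. Among the other 50 tested members 14 were lower, 10 higher and 26 not past it. All tested genes showed a shift with level too. Of the 2164 genes at or above the FPKM of DNAJA2, 52.8% were lower and 14.5% higher, and below it 22.5% were lower and 29.2% higher. The 7 members with the highest mean FPKM were HSP90AB1, HSP90AA1, HSPA8, HSPD1, HSPE1, HSPB1 and HSPA9, and each was called lower.

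**Figure D2:**
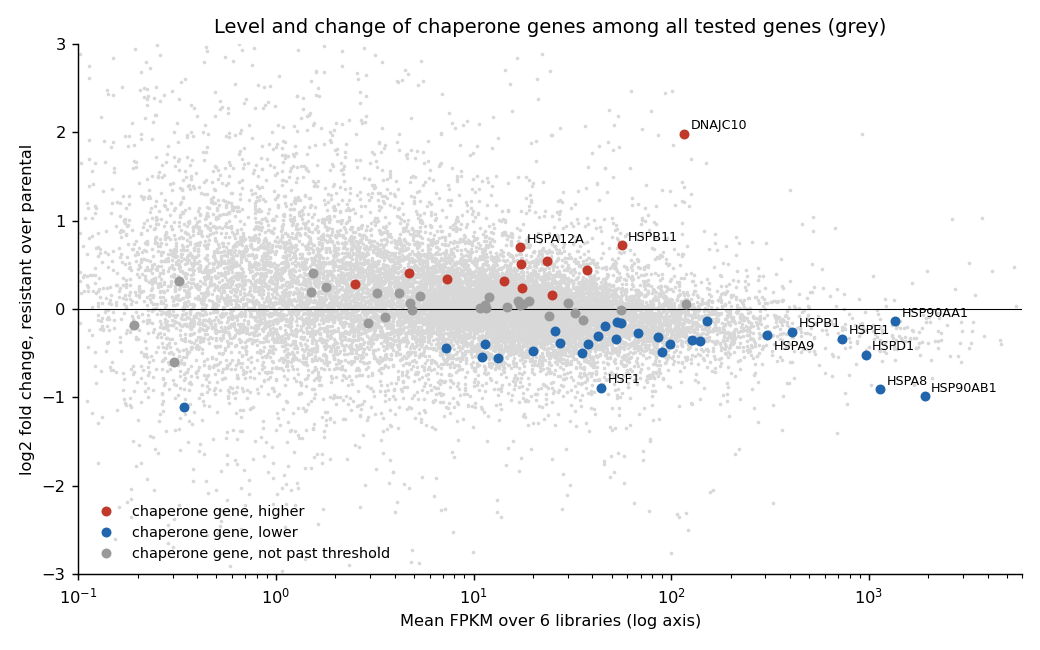
Log2 fold change (resistant over parental) against the mean FPKM over 6 libraries (log axis) for the 70 tested members in colour and all tested genes in grey, with genes outside the axis limits not drawn. The 7 members at the right, from HSPA9 at 305 FPKM to HSP90AB1 at 1917 FPKM, all lie below 0, and DNAJC10 lies at 1.98.

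HSP90 genes came first in level. HSP90AB1 (ENSG00000096384.20), the gene of the constitutive HSP90 beta, had 5494, 6160 and 5537 CPM in the parental libraries, against 2914, 2916 and 2839 CPM in the resistant ones. The highest resistant library lay far below the lowest parental one. The level fell 1.98-fold, from 5730 ± 373 to 2890 ± 44.1 CPM (SD, n = 3), with a log2 fold change of -0.99 ± 0.05 (SE) and an edgeR adjusted p of 3.1e-08. Without parental replicate 2, its highest library, the log2 fold change was -0.93. HSP90AA1, the gene of the stress-inducible HSP90 alpha, had 4208, 4469 and 4319 CPM in parental against 4031, 3835 and 3965 CPM in resistant libraries. These groups lay close together without overlap, and the log2 fold change came to -0.14 ± 0.05 (SE) at an edgeR adjusted p of 0.027. The HSP90AA1 call was lost in 8 of the 15 alternatives, with adjusted p-values from 0.0048 to 0.58, among them leaving out parental replicate 3 or any 1 resistant replicate. The relation between the HSP90 genes therefore differed by form. The FPKM ratio of HSP90AB1 to HSP90AA1 was 1.78, 1.85 and 1.75 in the parental libraries, against 0.984, 1.03 and 0.976 in the resistant ones. Parental cells thus held more HSP90AB1 than HSP90AA1 mRNA per length, and in resistant cells the values lay close to 1. The pseudogenes HSP90AB3P and HSP90AA2P, copies of these genes, can take reads from them and are uncertain. HSP90AB3P was called lower at 9 to 26 counts per library, a call lost with DESeq2 and on unfiltered FPKM (adjusted p up to 0.063), and HSP90AA2P, at 116 to 186 counts, had a log2 fold change of -0.16 and did not pass.

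HSPA8 (ENSG00000109971.14), the constitutive cytosolic HSP70 gene, followed HSP90AB1. It had 2618, 3050 and 2713 CPM in the parental libraries, against 1495, 1520 and 1453 CPM in the resistant ones. No resistant library came near the parental range. The fall was 1.88-fold (log2 fold change -0.91, SE 0.06, adjusted p = 1.3e-07 by edgeR), and the log2 fold change was -0.84 without parental replicate 2. The stress-inducible HSP70 genes did not show this. HSPA1B had 33.0, 33.2 and 30.3 CPM in parental against 36.1, 32.2 and 30.0 CPM in resistant libraries. These ranges overlapped, with a log2 fold change of 0.02 ± 0.07 (SE, edgeR adjusted p = 0.82). HSPA1A encodes the same protein from a near-identical gene and had only 3 to 17 counts per library, so the division of reads between them is uncertain. Summed over both, the level was 30.8 to 33.6 CPM in parental against 30.5 to 36.2 CPM in resistant libraries. HSPA6, a strictly inducible HSP70 gene, had only 1 to 7 counts per library and was not tested. The FPKM ratio of HSPA8 to HSPA1B was 93.4, 109 and 105 in the parental and 48.5, 55.5 and 56.5 in the resistant libraries.

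Among the remaining HSPA genes the direction varied. HSPA4, an HSP110-type exchange factor for HSP70, fell 1.31-fold from 388 ± 6.75 to 295 ± 4.95 CPM (SD, n = 3; edgeR adjusted p = 8.0e-06). Its relative HSPH1, the HSP110 gene induced by heat, had 326, 321 and 346 CPM in the parental libraries, against 234, 233 and 242 CPM in the resistant ones. HSPH1 fell 1.40-fold (log2 fold change -0.48, SE 0.05, adjusted p = 3.4e-06 by edgeR). HSPA4L, the third gene of this kind, had 78.1 ± 5.81 CPM in parental against 81.0 ± 3.57 CPM in resistant libraries and did not pass. HSPA12A, a distant HSP70 relative, rose 1.62-fold, from 61.8, 64.0 and 64.4 CPM to 103, 107 and 98.6 CPM (edgeR adjusted p = 2.7e-07). HSPA13, an HSP70-like protein of the endoplasmic reticulum, rose 1.46-fold from 68.4 ± 5.35 to 99.7 ± 8.30 CPM (edgeR adjusted p = 8.6e-05). Of 13 tested HSPA rows 3 were lower (23.1%), 2 higher (15.4%) and 8 not past the threshold, at or below the background of 26.5% lower and 27.3% higher. HSPA14, a ribosome-associated HSP70, stands on 2 rows with different identifiers and similar counts, whose reads may overlap, and neither row passed. HSPA2, HSPA1L and HSPA12B were low, at 11 to 156 counts per library, and did not pass either.

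HSPD1, HSPE1 and HSPA9, chaperones of the mitochondrial matrix, were lower. HSPD1 (HSP60) and HSPE1 (HSP10) form the chaperonin that folds imported proteins, and HSPA9 is the HSP70 that pulls them through the inner membrane. HSPD1 had 2002, 2001 and 2074 CPM in the parental libraries, against 1420, 1390 and 1434 CPM in the resistant ones. The fall was 1.43-fold (log2 fold change -0.52, SE 0.04, adjusted p = 1.1e-06 by edgeR). HSPE1 had 196, 171 and 193 CPM in parental against 143, 145 and 156 CPM in resistant libraries, a 1.26-fold fall (edgeR adjusted p = 4.7e-04). Parental replicate 2 was its lowest parental library and still lay above the resistant range. HSPA9 fell 1.22-fold, from 795 ± 18.2 to 650 ± 7.61 CPM (SD, n = 3; edgeR adjusted p = 9.7e-05). The FPKM ratio of HSPD1 to HSPE1 was 1.31, 1.45 and 1.31 in the parental and 1.31, 1.29 and 1.22 in the resistant libraries, and the ranges met. Of the 8 members placed in mitochondria from textbook knowledge, 6 were lower, none was higher and DNAJC15 and DNAJC30 did not pass. Over all tested genes 26.5% were lower, and 52.8% of those at or above the level of DNAJA2, where HSPD1, HSPE1, HSPA9 and DNAJA3 lie, so with 8 genes nothing particular to mitochondria can be read from the count. DNAJC19, a subunit of the import motor, fell 1.39-fold, DNAJC11 1.24-fold and DNAJA3, the matrix J protein also known as TID1, 1.12-fold. On unfiltered FPKM the calls of DNAJC19 and DNAJC11 were lost (limma adjusted p = 0.064 and 0.069). DNAJC15, a relative of DNAJC19 at the import channel, was at 12.7 to 15.1 CPM in parental against 15.6 to 16.2 CPM in resistant libraries, with a log2 fold change of 0.15 (edgeR adjusted p = 0.12).

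**Figure D3:**
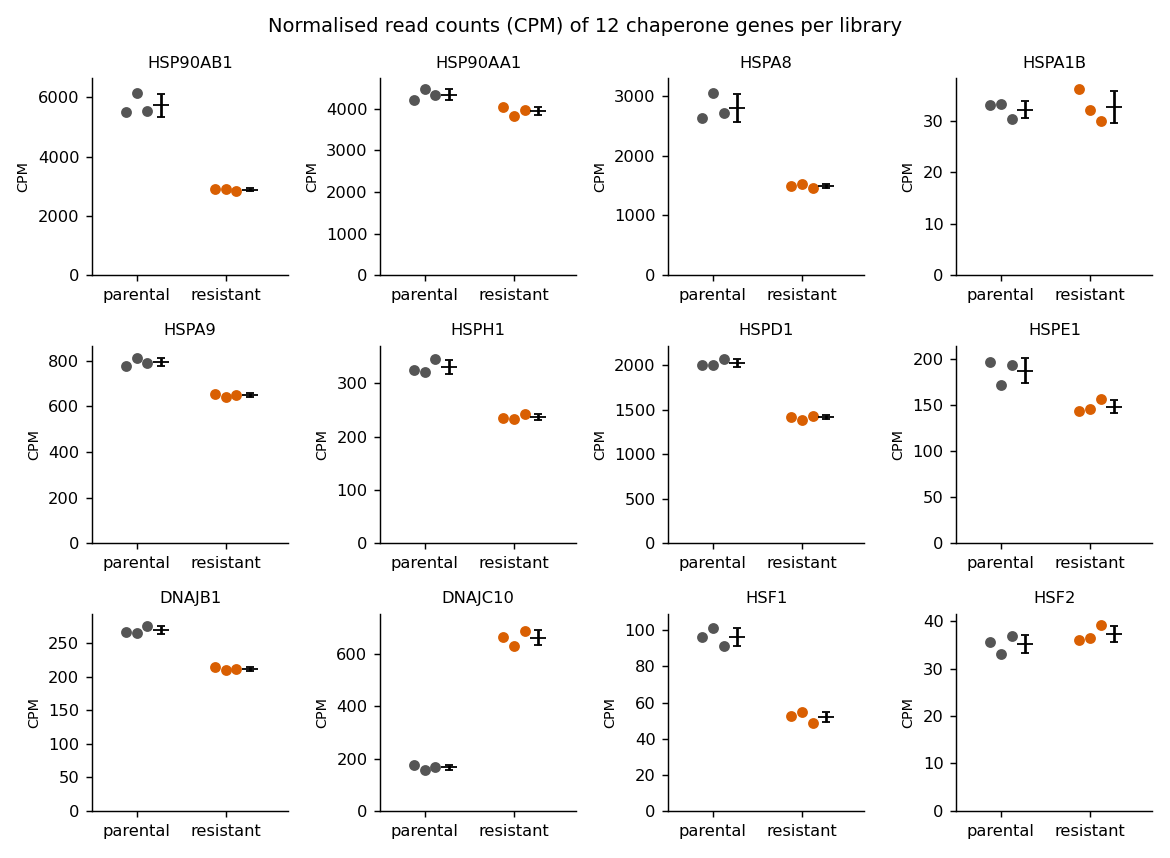
TMM-normalised CPM of 12 members in each library, with axes from 0 and the group mean ± SD (n = 3) beside the points. Resistant libraries (orange) lie below all parental libraries (grey) for HSP90AB1, HSP90AA1, HSPA8, HSPA9, HSPH1, HSPD1, HSPE1, DNAJB1 and HSF1 and above them for DNAJC10, and the groups overlap for HSPA1B and HSF2.

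J proteins went both ways. Of 37 tested DNAJ genes 16 were lower (43.2%), 9 higher (24.3%) and 12 not past the threshold, beside 26.5% lower and 27.3% higher over all tested genes, so the share of rises lay near the background. All 4 DNAJA genes, the class closest to the bacterial DnaJ, were lower, by 0.14 to 0.34 on the log2 scale. They lie at or above the FPKM of DNAJA2, or just below it for DNAJA4 (52.3 FPKM). At or above that level 52.8% of all tested genes were lower, so with 4 genes nothing particular to the class can be read from the count. DNAJA4 had 185, 182 and 185 CPM in the parental libraries, against 142, 153 and 143 CPM in the resistant ones, a 1.26-fold fall (edgeR adjusted p = 6.2e-05). DNAJA1 and DNAJA2, partners of HSPA8 in the cytosol, fell 1.10-fold and 1.11-fold. The calls of DNAJA1, DNAJA2 and DNAJA3 were lost with library sizes alone (edgeR adjusted p = 0.38, 0.34 and 0.22) and on FPKM, where DNAJA4 also did not pass (limma adjusted p = 0.052 with a pseudocount of 1). Leaving out resistant replicate 2 ended the calls of DNAJA1 and DNAJA2, and for DNAJA2 leaving out parental replicate 3 or resistant replicate 1 did as well, with edgeR adjusted p-values of 0.056 to 0.065.

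Of 7 tested DNAJB genes 3 were higher (42.9%), 2 lower (28.6%) and 2 not past the threshold, and the share of falls was about that of all tested genes (26.5%). DNAJB1 (HSP40), the J protein induced by heat together with HSPA1A, had 267, 264 and 276 CPM in the parental libraries, against 214, 209 and 211 CPM in the resistant ones. It fell 1.27-fold (log2 fold change -0.35, SE 0.04, adjusted p = 2.5e-05 by edgeR). DNAJB12, a J protein in the membrane of the endoplasmic reticulum, fell 1.45-fold from 35.1 ± 1.56 to 24.1 ± 1.56 CPM. Its partner in the same membrane, DNAJB14, had 73.6 ± 6.92 and 67.3 ± 6.58 CPM and did not pass. DNAJB4 rose 1.36-fold, from 57.6, 50.4 and 57.4 CPM to 75.5, 70.6 and 77.7 CPM (edgeR adjusted p = 1.1e-04). DNAJB5 and DNAJB2, a J protein with ubiquitin-binding motifs, rose 1.32-fold and 1.18-fold, and the DNAJB5 call was lost on unfiltered FPKM (limma adjusted p = 0.099). DNAJB6, which suppresses the aggregation of polyglutamine proteins, was at 115 to 130 CPM in parental against 123 to 128 CPM in resistant libraries and did not pass.

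DNAJC10 changed most of all members. It encodes ERdj5, a disulfide reductase of the endoplasmic reticulum that helps misfolded proteins leave for degradation. DNAJC10 (ENSG00000077232.18) had 176, 157 and 168 CPM in the parental libraries, against 665, 630 and 686 CPM in the resistant ones. Every resistant library lay far above every parental one. The rise was 3.95-fold, from 167 ± 9.65 to 660 ± 28.6 CPM (SD, n = 3), with a log2 fold change of 1.98 ± 0.05 (SE) and an edgeR adjusted p of 9.6e-11. The summed CPM of the J protein members was 2646, 2674 and 2675 in the parental and 2922, 2859 and 2942 in the resistant libraries. DNAJB9, DNAJB11 and DNAJC3, left out by the rule, are not in this sum. Without DNAJC10 the direction turned, with 2470, 2517 and 2507 CPM in parental against 2257, 2229 and 2256 CPM in resistant libraries.

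**Figure D4:**
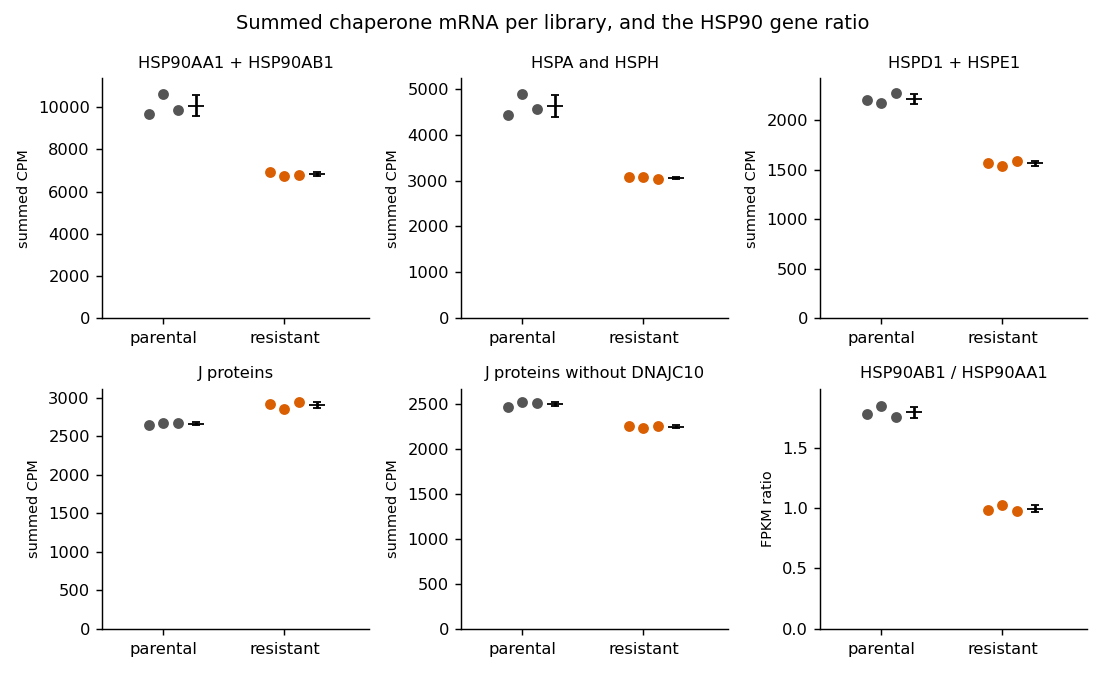
Summed TMM-normalised CPM per library for groups of members, and the FPKM ratio of HSP90AB1 to HSP90AA1, with axes from 0 and the group mean ± SD (n = 3). The HSP90, HSPA with HSPH, and HSPD1 with HSPE1 sums are lower in every resistant library, and the J protein sum is higher with DNAJC10 and lower without it.

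Of 26 tested DNAJC genes 10 were lower (38.5%), 6 higher (23.1%) and 10 not past the threshold, with a median log2 fold change of 0.03. The background was 26.5% lower and 27.3% higher, and the family lay close to it for rises. The falls beside DNAJC19 and DNAJC11 included genes of protein synthesis, splicing and membrane traffic. DNAJC2, a J protein of the ribosome that helps nascent chains fold, had 64.4, 66.2 and 66.2 CPM in the parental libraries, against 47.8, 44.9 and 47.0 CPM in the resistant ones. It fell 1.41-fold (edgeR adjusted p = 5.8e-06). DNAJC22 fell most in the family, 1.47-fold from 47.0 ± 3.97 to 31.9 ± 1.30 CPM. DNAJC13, which acts in endosomal sorting, fell 1.32-fold from 90.4 ± 0.849 to 68.7 ± 2.17 CPM. DNAJC7, a J protein with tetratricopeptide repeats that binds HSP70 and HSP90, DNAJC8, a spliceosome protein, and DNAJC14 fell by 0.28, 0.32 and 0.38 on the log2 scale. The DNAJC7 call was lost on unfiltered FPKM (limma adjusted p = 0.067). DNAJC17 lay near the threshold, with an edgeR adjusted p of 0.047, and lost its call in 8 of 15 alternatives, among them each replicate left out except parental replicate 1 (adjusted p up to 0.19). DNAJC25 fell 1.36-fold in counts, while the deposited FPKM gave the opposite sign, with a log2 ratio of 0.18 of the group means. Among members that rose, DNAJC24, needed to make diphthamide on elongation factor EF2, went from 27.5, 20.9 and 28.9 CPM to 36.1, 34.7 and 38.6 CPM, a 1.43-fold rise (edgeR adjusted p = 0.0028). DNAJC6 (auxilin), which strips clathrin from vesicles, rose 1.26-fold. DNAJC1, a J protein in the membrane of the endoplasmic reticulum, rose 1.24-fold. DNAJC5, the cysteine string protein of vesicle release, rose 1.12-fold, and DNAJC27 1.22-fold. The DNAJC27 gene had 118 to 213 counts per library and lost its call in 7 alternatives, among them DESeq2 (adjusted p = 0.14) and each of the replicates left out except parental replicate 2 and resistant replicate 1. DNAJC9, a histone chaperone, was at 114 to 117 CPM in parental against 112 to 113 CPM in resistant libraries, with a log2 fold change of -0.05 (edgeR adjusted p = 0.35).

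Of the small heat shock proteins, which hold unfolded proteins without using ATP, HSPB1 (HSP27) was the main one expressed. HSPB1 had 190, 233 and 186 CPM in the parental libraries, against 166, 181 and 162 CPM in the resistant ones. Parental replicate 2 stood above the others, and the lowest parental library lay only just above the highest resistant one. The log2 fold change came to -0.26 ± 0.08 (SE) at an edgeR adjusted p of 0.028, and the call was lost in 6 of 15 alternatives, with adjusted p-values of up to 0.23. Leaving out resistant replicate 1 or 3 ended it (edgeR adjusted p = 0.083 and 0.095). HSPB11, named as a small heat shock protein but known as a subunit of intraflagellar transport, rose 1.65-fold, from 23.3, 23.3 and 25.3 CPM to 38.8, 39.4 and 39.9 CPM (edgeR adjusted p = 7.6e-07). HSPB8, a partner of BAG3 in selective autophagy, had 7.19 ± 0.574 and 8.16 ± 1.07 CPM and did not pass. HSPB2, HSPB6, HSPB7 and HSPB9 had at most 8 counts in any library and were not tested.

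Several BAG proteins, BAG1 among them, bind the ATPase domain of HSP70 and release its nucleotide. Of the 6 BAG genes 2 were lower (33.3%), none higher and 4 not past the threshold, and the share of falls was near the background of 26.5%. BAG6, which handles membrane proteins that fail to insert, had 279, 317 and 272 CPM in the parental libraries, against 229, 230 and 214 CPM in the resistant ones, a 1.29-fold fall (edgeR adjusted p = 2.9e-04). BAG3, a target of HSF1, fell 1.14-fold, from 110, 119 and 103 CPM to 94.3, 98.9 and 97.1 CPM (edgeR adjusted p = 0.012). The BAG3 call was lost without resistant replicate 1 (edgeR adjusted p = 0.060), with library sizes alone (0.14) and on FPKM (limma adjusted p = 0.19 to 0.27). BAG1 had 45.9, 48.0 and 47.6 CPM in parental against 46.9, 47.2 and 45.8 CPM in resistant libraries, with a log2 fold change of -0.015 ± 0.05 (SE). BAG2, BAG4 and BAG5 had log2 fold changes of 0.13, 0.09 and 0.04, and BAG5 passed only with library sizes alone (edgeR adjusted p = 0.048). BAG2 passed with the replicate number as a block (edgeR adjusted p = 0.011) and without parental replicate 3 (0.044). HSPBP1, another exchange factor of HSP70, fell 1.32-fold from 48.8 ± 0.584 to 37.0 ± 1.40 CPM (edgeR adjusted p = 5.1e-05), and HSPBAP1 did not pass.

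HSF1 (ENSG00000185122.11), the master regulator of the heat shock response, was lower in the resistant cells. It had 96.4, 101 and 91.4 CPM in the parental libraries, against 52.7, 54.6 and 48.8 CPM in the resistant ones. The fall was 1.85-fold (log2 fold change -0.89, SE 0.06, adjusted p = 1.4e-07 by edgeR). HSF2, which forms mixed trimers with HSF1, had 35.5, 33.1 and 36.9 CPM in parental against 36.1, 36.5 and 39.2 CPM in resistant libraries. These ranges overlapped and the log2 fold change came to 0.09 ± 0.06 (SE) at an edgeR adjusted p of 0.25, with a call only with library sizes alone (edgeR adjusted p = 0.030). The FPKM ratio of HSF1 to HSF2 was 2.91, 3.39 and 3.38 in the parental and 1.61, 1.68 and 1.30 in the resistant libraries. These are mRNA levels, and neither the protein nor its activation was measured. Among classical heat shock genes, HSPA8, HSPH1, HSPD1, HSPE1 and DNAJB1 were lower with HSF1, HSP90AA1, HSPB1 and BAG3 were lower with calls that depended on the setting, and HSPA1B was not called in any setting.

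The folding machinery around these members was described with further lists, which hold 53 distinct genes, 52 of them tested. Of these 29 were lower (55.8%), 2 higher and 21 not past the threshold, with a median log2 fold change of -0.21. The background was 26.5% lower and 27.3% higher. Many of these genes, all of TRiC among them, lie at or above the FPKM of DNAJA2. At that level 52.8% of all tested genes were lower and 14.5% higher, so the share of falls lay near it. All 8 subunits of TRiC, the cytosolic chaperonin that folds actin and tubulin, were lower, by 0.21 to 0.48 on the log2 scale, with the call of CCT7 lost on unfiltered FPKM (limma adjusted p = 0.075). TCP1 fell from 720, 664 and 729 CPM to 511, 505 and 505 CPM, and CCT6A and CCT2 fell 1.37-fold and 1.35-fold. Of 6 genes of prefoldin, which hands clients to TRiC, 4 were lower and none higher, among them PFDN4 (1.35-fold), PFDN1 (1.20-fold) and PFDN2 (1.15-fold). The PFDN2 call was lost in 4 of 15 alternatives, with library sizes alone and on FPKM (adjusted p up to 0.12 by edgeR or limma). That of PFDN5 (1.16-fold) was lost in 6, among them leaving out resistant replicate 1 or 3 (adjusted p up to 0.21 by edgeR or limma).

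Of 15 co-chaperones of HSP90, 8 were lower (53.3%) and none higher, with a median log2 fold change of -0.21. Over all tested genes 26.5% were lower, and 52.8% of those at or above the FPKM of DNAJA2. The calls of AHSA1, TTC4 and UNC45A were lost in 1, 4 and 3 of 15 alternatives. FKBP4, an immunophilin of steroid receptor complexes, fell 1.58-fold from 359 ± 25.2 to 227 ± 7.61 CPM (SD, n = 3; edgeR adjusted p = 1.2e-06). STIP1, the adaptor that links HSP70 to HSP90, had 552, 586 and 552 CPM in the parental libraries, against 393, 388 and 371 CPM in the resistant ones, a 1.47-fold fall. PPP5C, a phosphatase bound to HSP90, fell 1.51-fold. CDC37, which brings kinases to HSP90, and PTGES3 (p23) had log2 fold changes of -0.03 each and did not pass, as did FKBP5 and PPID. Of 7 further co-chaperones of HSP70, 4 were lower (57.1%) and 1 higher (14.3%). The background was 26.5% lower and 27.3% higher over all tested genes. It was 52.8% lower and 14.5% higher at or above the FPKM of DNAJA2, where all the lower ones lie. SGTA, among the lower genes, lost its call in 5 of 15 alternatives. ST13 fell 1.24-fold and GRPEL1, the exchange factor of HSPA9, 1.43-fold, while SGTB rose 1.49-fold from 29.4 ± 2.20 to 43.6 ± 3.06 CPM.

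The list of further heat shock response genes shares FKBP4, STIP1, AHSA1 and CHORDC1 with the co-chaperones. Of 9 tested genes 4 were lower (44.4%) and none higher, beside 26.5% lower and 27.3% higher over all tested genes. Of all genes at or above the FPKM of DNAJA2, where these lower ones lie, 52.8% were lower. FKBP4, STIP1, AHSA1 and CACYBP (1.29-fold) were the lower ones. ZFAND2A, SERPINH1 and UBB did not pass, with log2 fold changes of 0.13, 0.05 and 0.04, and CRYAB had too few counts. In the list of HSP70 and HSP90 proteins of organelles and their partners, 4 of 8 were lower, 1 higher and 3 not past the threshold. TRAP1, the HSP90 of mitochondria, fell 1.29-fold from 330 ± 16.0 to 255 ± 8.35 CPM. HSP90B1 and DNAJB11 were called lower at log2 fold changes of -0.17 and -0.18. Both calls were lost with library sizes alone and on FPKM (adjusted p of up to 0.77 and 0.12 by edgeR or limma). In the endoplasmic reticulum the main HSP70, HSPA5, had 1488 ± 63.1 CPM in parental against 1525 ± 27.6 CPM in resistant libraries and did not pass (edgeR adjusted p = 0.54). SIL1, its exchange factor, fell 1.23-fold, a call lost on FPKM (limma adjusted p of up to 0.22), and DNAJB9 rose by 0.59 on the log2 scale, from 18.7 ± 0.894 to 28.2 ± 2.46 CPM. HSF4, HSBP1 and HSBP1L1, a further factor and regulators of the family, did not pass.

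The remaining members add little in level. Of the 16 members not tested, DNAJB13, with 3 to 11 counts per library, had the highest count. Members tested but not described above were DNAJC4, DNAJC5G, DNAJC12, DNAJC16, DNAJC18, DNAJC21 and DNAJC28. None of these 7 passed the threshold, and their log2 fold changes lay between -0.09 and 0.41.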

How the data were processed

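Gene counts of 6 bulk RNA-seq libraries (3 parental, 3 resistant HCT116) were used as the authors deposited them, as whole-number counts with no normalisation. Libraries were prepared from total RNA with a SMARTER kit for mRNA (labels' protocols). The aligner, counting program, annotation and strandedness were, for these tables, not given in the sources used here. Per the submitters' processing notes the genome builds are those of the mouse, while 30616 of 31456 rows carry human Ensembl identifiers, so no coordinates or sequences are given. A second deposited table was taken as FPKM computed by the authors, a unit read from its values because its header gives no unit.

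Groups came from the sample titles and columns from the sample descriptions. edgeR 4.0.16 in R 4.3.3 was run on all genes (TMM, filterByExpr, robust quasi-likelihood fit, two-sided, Benjamini-Hochberg adjustment over 16605 genes, threshold 0.05). The standard error is the log2 fold change divided by the square root of F. Alternatives used RLE factors, library sizes alone, no filter, at least 1 CPM in 3 libraries, DESeq2 1.42.0, a replicate block, each library left out, and limma 3.58.1 on log2(FPKM + 1) or log2(FPKM + 0.1) for rows with a mean FPKM of at least 1, or without that filter. Fold changes from limma are on the log2(FPKM + pseudocount) scale, which understates low genes. With 3 against 3 libraries an exact permutation test cannot give a p below 0.10, so none was made.

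Members and lists were chosen with earlier results of these data known. The rule for named genes took HSPA1A, HSPA1B, HSPA8, HSPH1, HSP90AA1, HSP90AB1, HSPB1, DNAJB1, HSPD1, HSPE1, HSF1, HSF2 and BAG1 to BAG6. It also took up to 5 called members in each direction from each family by size of change, and up to 3 called genes from each list by adjusted p. Other genes are named to account for all members or were named after their values were seen, as were the 1.5-fold level and the 20 members by level. On simulated counts with 50 genes changed by each fold among 16408 genes, 26 (1.25-fold), 46 (1.5-fold), 50 (2-fold) and 50 (4-fold) were called by edgeR in the right direction, and 4 unchanged genes were called.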

Additional observations from a re-analysis of the deposited data

How the results depend on the processing

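The counts of members called higher and lower, 12 and 30, stayed within 1.5 times under all alternatives but one. On FPKM with no filter 18 members were lower. Leaving out 1 library at a time gave 11 to 15 members higher and 25 to 30 lower. Of the 42 calls, 28 to 42 were shared with each alternative, 28 on FPKM with no filter. Of the surrounding genes 2 were higher, against 6 with library sizes alone and 2 to 4 with 1 library left out, the 4 without parental replicate 2, and 29 were lower, against 27 to 32 with 1 library left out. Of 57 named genes tested, 38 kept their direction and their side of the threshold in every alternative, among them HSP90AB1, HSPA8, HSPD1, HSPE1, HSPA9, HSPH1, DNAJB1, DNAJC10 and HSF1. Of the 42 called members, 27 kept their call and direction in every alternative that tested them. The direction turned for genes with small or uncertain changes. The BAG1 log2 fold change was 0.079 with library sizes alone. That of DNAJC25 was 0.15 on FPKM with a pseudocount of 1, filtered or not, and 0.17 with a pseudocount of 0.1. With 1 library left out, that of HSPA1A ran from -0.72 to 0.43, with 0.43 without parental replicate 1 and 0.12 without resistant replicate 1. That of HSPA1B ran from -0.052 to 0.080, with -0.025 without parental replicate 3 and -0.052 without resistant replicate 1. The cause of these changes was not tested.

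The groups share replicate numbers. The deviations of same-numbered libraries from their group means correlated at 0.074, 0.14 and 0.010 for numbers 1, 2 and 3. Those of libraries with different numbers correlated at -0.15 to 0.094, and parental replicate 3 correlated better with resistant replicate 1 (0.094) than with its own number. These values do not settle whether the libraries were paired. Over all tested genes the replicate block gave 5010 higher and 4963 lower, against 4534 and 4399 without it. With the replicate block 13 members were higher and 31 lower, and 34 surrounding genes were lower. Few counts limit what can be read from low members such as HSPA1A, at 3 to 17 counts per library. For HSPA1A the division of reads with HSPA1B is uncertain as well.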
